A study of Mus musculus with 141 samples.

Results

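The corticotropin-releasing factor (CRF) system was followed here through the mRNAs of 5 genes: the peptide ligands Crh and Ucn, the receptors Crhr1 and Crhr2, and the secreted binding protein Crhbp. The members were chosen by name for their place in the pathway and not by a measured value, though earlier results of these data were known. They make up 5 of the 43432 gene IDs in the expression tables. All mice were male C57BL/6J, and each of the 66 mRNA libraries held tissue punches of 4 mice pooled together, so that the spread between libraries is a spread between pools. From 6 weeks of age, mice of the acute withdrawal group (NAWD) drank nicotine tartrate for 6 weeks, dosed as 200 µg/ml nicotine base, and tartaric acid for the last 48 hours before tissue was taken. Mice of the nicotine group (Nic) drank the same nicotine solution for 6 weeks, and control mice (TA) drank tartaric acid for 6 weeks. Long withdrawal mice (NLWD) were returned to tartaric acid for 4 weeks after the 6 weeks of nicotine, and their age-matched controls (TAL) drank tartaric acid for 10 weeks. Every solution, those of the controls included, held 3 g/L saccharine. The punches covered the medial habenula (MHb; NAWD n = 4, Nic n = 4, TA n = 4, NLWD n = 5, TAL n = 5), the interpeduncular nucleus (IPN; NAWD n = 5, Nic n = 5, TA n = 5, NLWD n = 2, TAL n = 3) and the nucleus accumbens (NAc; NAWD n = 4, Nic n = 5, TA n = 5, NLWD n = 5, TAL n = 5). The MHb is a small nucleus beside the third ventricle whose cholinergic neurons project to the IPN, and the NAc, a reward region, lies outside that circuit.

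CRF, the product of Crh, is best known as the hypothalamic peptide that starts the pituitary-adrenal stress response, and it also acts inside the brain, where it has been tied to anxiety during drug withdrawal. CRF and urocortin, the product of Ucn, bind 2 G protein-coupled receptors that raise cAMP. CRF has the higher affinity for the receptor made from Crhr1, while urocortin binds both with high affinity. The binding protein made from Crhbp holds both peptides outside the cell and keeps part of them away from the receptors. The main source of urocortin in the rodent brain is the Edinger-Westphal nucleus in the ventral midbrain.

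In the GRCm38 assembly (GENCODE M21 annotation), Crh (ENSMUSG00000049796.4) lies at chr3:19693401-19695396 on the minus strand and Ucn (ENSMUSG00000038676.2) at chr5:31138063-31138829 on the minus strand. Crhr1 (ENSMUSG00000018634.10) lies at chr11:104132855-104175523 on the plus strand and Crhr2 (ENSMUSG00000003476.11) at chr6:55090049-55133016 on the minus strand. Crhbp (ENSMUSG00000021680.7) lies at chr13:95431371-95444924 on the minus strand, and no annotated gene overlaps any of the 5. Values are given in TPM, transcripts per 1000000, which are corrected for transcript length and can be compared between genes.

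The promoters of 4 of the 5 members had an entry in the RefSeq table (GRCm38.p6), and 3 are shown as the 250 bases before the RefSeq start. For these 3 the RefSeq start differs from the GENCODE start given above, and the Crhbp window overlaps the GENCODE gene. Crhr1 and Crhbp are shown because their mRNAs varied together among the IPN libraries, and Ucn because its mRNA was found almost only in the IPN. Capitals mark a match, on either strand, to the full cAMP response element TGACGTCA or to its core TGACG, which the full element contains and which reads CGTCA on the other strand.
Ucn, chr5:31138896-31139145, minus strand: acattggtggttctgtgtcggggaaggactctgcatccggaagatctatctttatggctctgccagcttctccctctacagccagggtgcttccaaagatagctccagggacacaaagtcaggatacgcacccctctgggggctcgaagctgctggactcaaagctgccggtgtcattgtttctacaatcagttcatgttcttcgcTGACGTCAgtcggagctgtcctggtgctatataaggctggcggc
Crhr1, chr11:104132531-104132780, plus strand: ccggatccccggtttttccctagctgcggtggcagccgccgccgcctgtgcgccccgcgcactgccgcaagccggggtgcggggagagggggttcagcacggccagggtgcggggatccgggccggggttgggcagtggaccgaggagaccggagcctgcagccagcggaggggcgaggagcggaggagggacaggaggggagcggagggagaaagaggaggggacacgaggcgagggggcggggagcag
Crhbp, chr13:95444832-95445081, minus strand: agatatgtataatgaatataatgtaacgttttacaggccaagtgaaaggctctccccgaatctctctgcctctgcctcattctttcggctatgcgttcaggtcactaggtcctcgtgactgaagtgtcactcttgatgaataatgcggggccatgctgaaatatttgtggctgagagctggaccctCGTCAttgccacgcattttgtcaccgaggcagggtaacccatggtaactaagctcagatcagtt
The Ucn window held the full element, beginning 44 bases before the start. The Crhbp window held the core on its other strand, beginning 64 bases before the RefSeq start and inside the gene as GENCODE places it. The Crhr1 window held neither. Among 32851 windows of the same length, 1.55% held the full element and 17.8% held the core. The windows also differed in base composition: 74.8% of the bases were G or C for Crhr1, 54.0% for Ucn and 47.2% for Crhbp. For Crhr2, not printed, the window held TATAAA 39 bases before the start, a motif found in 12.4% of the windows.

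Libraries held between 31405268 and 153458226 mapped reads. In most, 16533 to 20150 genes were above 0, but the 5 IPN libraries of NLWD and TAL mice had only 10452 to 15469, and in NLWD replicate 2 the 10 most abundant genes held 57.8% of all TPM. The share of reads that mapped to several places also differed between groups, which bears on the results below. Regional identity was checked with marker lists: 6 habenular neuron genes summed to between 303 and 1566 TPM in MHb punches, to at most 27.3 TPM in IPN and at most 92.5 TPM in NAc. A set of 8 genes of striatal projection neurons reached 1169 to 5801 TPM in NAc punches, at most 274 TPM in MHb and at most 190 TPM in IPN. The IPN list was not specific to the IPN, since its 6 genes reached 98.1 to 803 TPM there and up to 1399 TPM in NAc. MHb punches also held choroid plexus, whose 9 marker genes summed to between 10350 and 62784 TPM, against at most 196 TPM in IPN and 15.5 TPM in NAc. In such bulk tissue, fewer cells of a type and less RNA per cell cannot be told apart.

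The members had different regional maps, as the plot of every library shows. Crh was detected in NAc (1.24 to 58.72 TPM, median 7.81, n = 24) but hardly in MHb (0 to 0.83 TPM, median 0.08, n = 22). In IPN it was listed at 0 in all TAL libraries and in 1 NLWD library, and above 0 in the others. Ucn was listed above 0 in 16 of 20 IPN libraries, against 4 of 22 in MHb and 4 of 24 in NAc. Crhbp was the most abundant member in the IPN (6.78 to 49.02 TPM, median 18.97) and stayed under 2 TPM in MHb. Crhr2 was low in every region, never above 3.66 TPM.

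**Figure D1:**
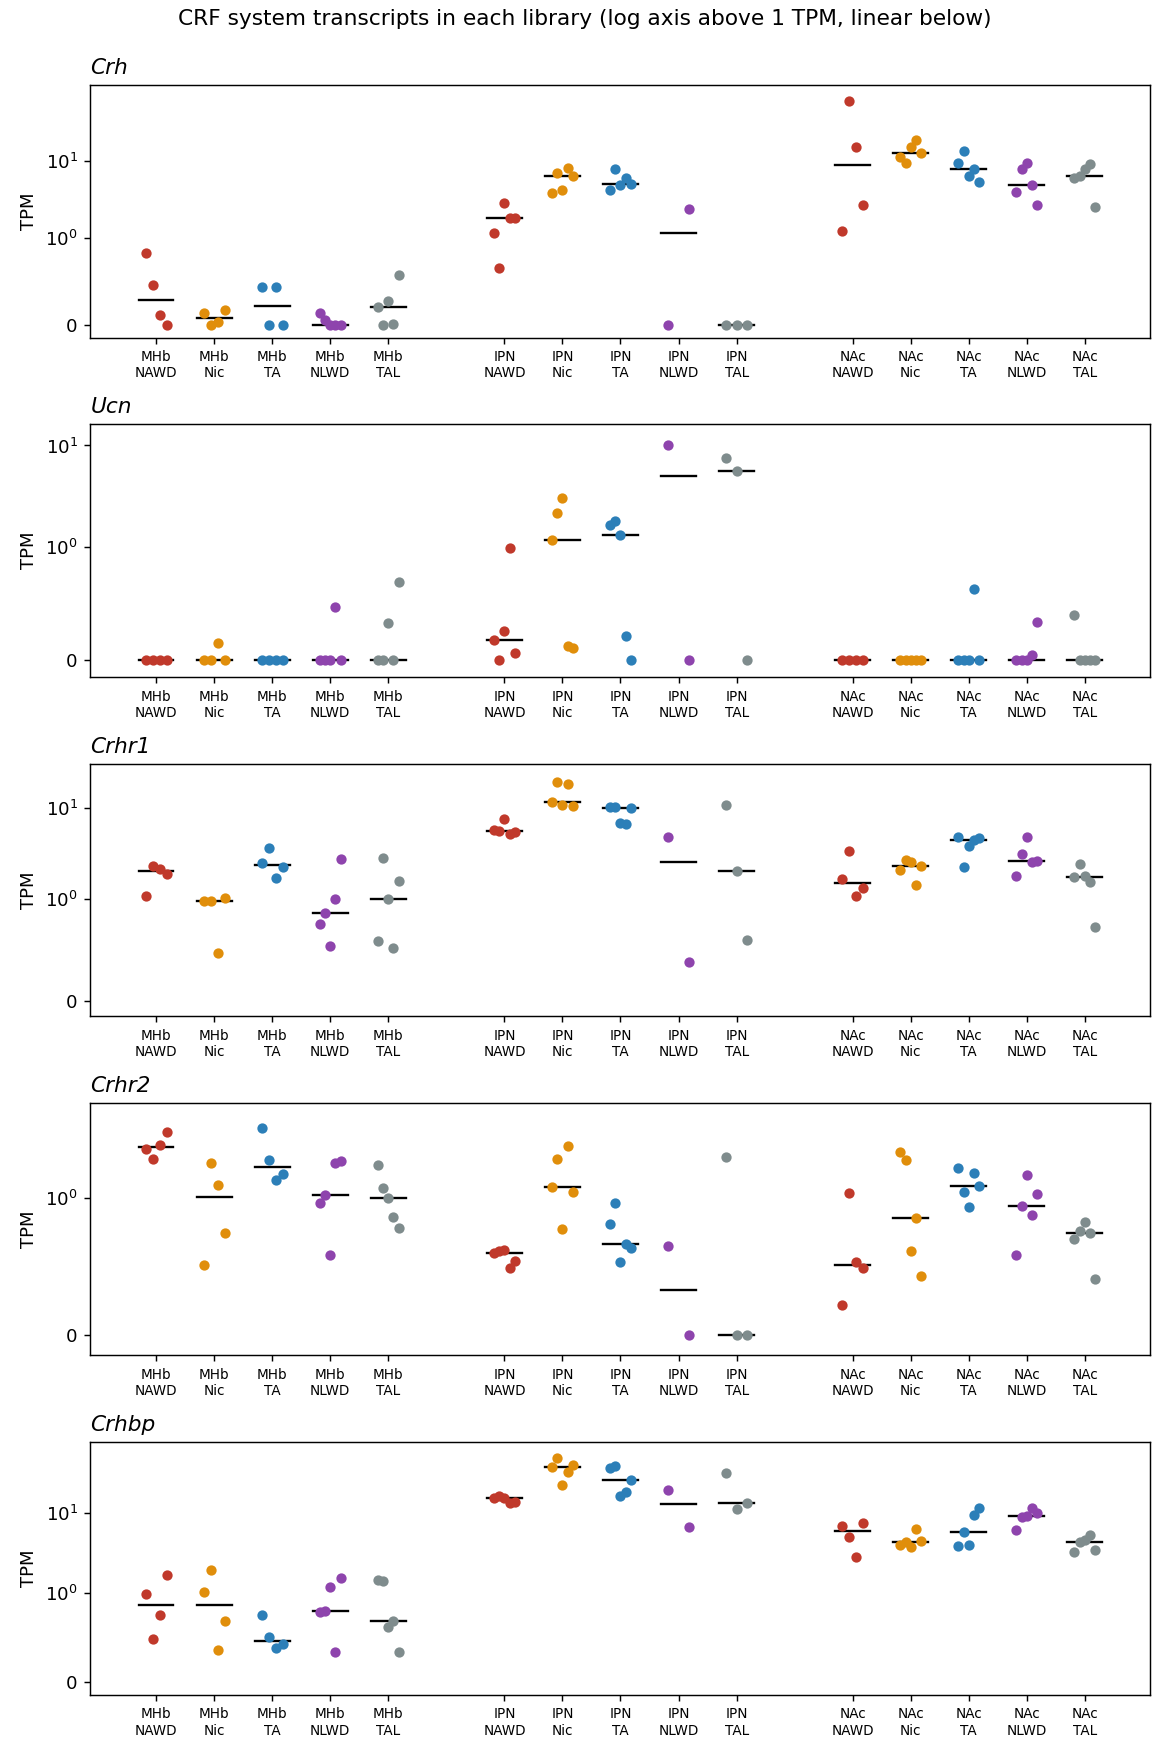
TPM of Crh, Ucn, Crhr1, Crhr2 and Crhbp in each mRNA library (points), by region and treatment; black bars are group medians, and the axis is logarithmic above 1 TPM and linear below. Crhbp and Crhr1 are highest in IPN, Crh is near 0 in MHb, and Ucn is above 0 mainly in IPN.

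Ordered by group medians, Crh ran from 12.43 TPM in NAc of Nic mice to 0 TPM in MHb of NLWD mice and in IPN of TAL mice, and each group in that order overlapped the next. For Crhr1 the order began with IPN of Nic mice (11.57 TPM), whose libraries lay above all those of the next group, IPN of TA mice (10.01 TPM). IPN of NAWD mice came after these (5.59 TPM), and all its libraries lay above those of the next group, NAc of TA mice (4.50 TPM); MHb of NLWD mice was last (0.87 TPM). All 5 IPN groups headed the Crhbp order, from 38.6 TPM in Nic to 13.195 TPM in NLWD mice. The NAc groups followed (4.38 to 9.37 TPM) and the MHb groups came last (0.46 to 0.87 TPM), with no overlap between the lowest NAc and the highest MHb group. Crhr2 was the only member with its 2 highest group medians in MHb, in NAWD (2.585 TPM) and TA mice (1.78 TPM), and neighbours in its order overlapped throughout. The median of Ucn was above 0 only in the 5 IPN groups.

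To set the regions against each other, TA mice alone were compared in 1 limma fit across 16648 genes, with calls at a Benjamini-Hochberg adjusted p under 0.01 and a fold over 2. Crh had 0.44, 0, 0.44 and 0 TPM in MHb libraries, against 4.2, 7.7, 4.9, 6.05 and 4.94 TPM in IPN and 9.37, 13.34, 6.35, 7.76 and 5.28 TPM in NAc. No MHb library reached either of the other regions, and the log2 fold change was -2.43 ± 0.26 (SE) for MHb against IPN and -2.91 ± 0.26 for MHb against NAc (adjusted p = 6.7e-07 and 2.6e-08). Between IPN and NAc, Crh overlapped and did not pass the test (-0.49 ± 0.25, adjusted p = 0.122). In TAL mice the same test could not be made for Crh, which was listed at 0 in all 3 IPN libraries.

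Crhbp had the steepest map. TA mice had 0.38 to 0.75 TPM in MHb, against 16.7 to 39.48 TPM in IPN and 3.92 to 11.85 TPM in NAc, without overlap between any 2 regions. As a background, 10.8% of all genes lay wholly lower in MHb than in IPN, 23.4% wholly lower in MHb than in NAc and 7.57% wholly higher in IPN than in NAc. The log2 fold change was -4.17 ± 0.32 for MHb against IPN, -2.31 ± 0.32 for MHb against NAc and 1.86 ± 0.30 for IPN against NAc (adjusted p = 4.3e-09, 7.5e-06 and 6.2e-05). In TAL mice all 3 differences were called as well, at -3.30, -1.49 and 1.81 (adjusted p = 1.9e-05, 0.00394 and 0.00188).

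Crhr1 in TA mice averaged 2.54 ± 0.84 TPM in MHb (SD, n = 4), 8.82 ± 1.82 TPM in IPN and 4.02 ± 1.07 TPM in NAc (SD, n = 5 each). It was lower in MHb than in IPN (log2 fold change -1.48 ± 0.25, adjusted p = 1.7e-04), a call that was not made in TAL mice (-0.82, adjusted p = 0.283). IPN against NAc fell just short of the 2-fold limit (0.98 ± 0.24, adjusted p = 0.00274) and passed it after quantile normalization (1.33) and with a pseudocount of 0.1 (1.14), while TAL mice gave 0.57 (adjusted p = 0.395). Crhr2 ran the other way, with 2.15 ± 1.04 TPM in MHb, against 0.72 ± 0.17 TPM in IPN and 1.32 ± 0.34 TPM in NAc. The MHb libraries of Crhr2 (3.66, 2.0, 1.39 and 1.56 TPM) all lay above the IPN libraries (0.81, 0.96, 0.53, 0.66 and 0.63 TPM), with a log2 fold change of 0.83 ± 0.20 (adjusted p = 0.00352) that did not reach the fold limit. It passed that limit and was called with a pseudocount of 0.1 (1.39, adjusted p = 0.00526) and with the multiply mapped share as a covariate, an alternative added after the data were seen (1.07, adjusted p = 4.0e-05). In the same way 7.63% of all genes lay wholly higher in MHb than in IPN. Crhr2 is known in rodents from the choroid plexus too, and over 22 MHb libraries with group means removed it correlated with the summed choroid plexus genes at r = 0.648. Values of similar size were reached with the lists for striatal projection neurons (0.704), dentate gyrus (0.670), astrocytes (0.642) and habenular neurons (0.620). With the multiply mapped share, r was -0.679. The part of choroid plexus in the MHb level was not tested.

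Thus 3 of the 4 members tested were called for MHb against IPN, 2 of 4 for MHb against NAc and 1 of 4 for IPN against NAc. Over all genes tested the shares were 12.5%, 26.4% and 19.1%, and the median log2 fold change of all genes was -0.09, -0.35 and -0.22. Ucn was left out of these tests by the filter on low values. Region and any difference in dissection or library preparation between regions cannot be told apart.

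Within each region, the groups were then compared to ask whether nicotine or its withdrawal moved the CRF transcripts. No member was called in any of the 12 comparisons, out of 49 member tests with limma on log2(TPM + 1) and factors of unwanted variation, and 6 of the 49 had an unadjusted p under 0.05. A member was left out of a comparison where fewer than 0.5 of the libraries of a group had it above 0: this was so for Ucn in MHb and NAc, for Crh and Crhr2 in the long withdrawal comparison of IPN, and for Crh in that of MHb.

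In the IPN, the clearest difference was a low level of the ligand Crh during acute withdrawal. Crh had 1.17, 0.65, 2.81, 1.8 and 1.83 TPM in NAWD libraries, against 3.82, 6.91, 4.13, 8.01 and 6.28 TPM in Nic libraries and 4.2, 7.7, 4.9, 6.05 and 4.94 TPM in TA libraries. Every NAWD library was below every Nic and every TA library. Of all genes, 22.1% lay wholly lower in NAWD than in TA and 51.7% wholly lower than in Nic. The log2 fold change of NAWD against TA was -1.17 ± 0.30 (SE; 95% interval -1.82 to -0.52; unadjusted p = 0.00164), with an adjusted p of 0.0785 in limma over 18028 genes, short of the threshold of 0.01. Against Nic it was -1.04 ± 0.45 (adjusted p = 0.319), and Nic against TA gave -0.13 ± 0.29 (adjusted p = 0.875). These 3 contrasts share libraries. Of all genes, 0.0998% were called for NAWD against TA, 0.00555% for NAWD against Nic and 0.0% for Nic against TA. Without factors of unwanted variation the NAWD against TA difference in Crh was called (-1.34, adjusted p = 0.00379), as were then 3.08% of all genes. With a replicate block in limma it was -0.72 (adjusted p = 0.355), and -0.20 against Nic (adjusted p = 0.911). After quantile normalization the 2 values were -0.97 and -0.63 (adjusted p = 0.0919 and 0.411).

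Crhbp and Crhr1 in the IPN varied with a mapping property of the libraries. The share of reads mapping to several places was 17.8 to 20.4% in NAWD, 7.77 to 13.0% in Nic and 12.3 to 19.1% in TA libraries. Crhbp had 15.73, 16.63, 15.57, 13.63 and 13.86 TPM in NAWD libraries, against 38.6, 49.02, 22.95, 32.99 and 40.94 TPM in Nic and 37.25, 39.48, 16.7, 18.33 and 26.54 TPM in TA libraries. The 2 TA libraries with the lowest Crhbp, replicates 3 and 4, were those with the highest multiply mapped shares of their group (19.1 and 17.7%), and the same libraries had the lowest Crhr1 of the TA group, 6.92 and 6.75 TPM. Their Crh was 4.9 and 6.05 TPM. The part of the multiply mapped share in the differences of any of these members was not tested. With group means removed, Crhbp correlated with the multiply mapped share at r = -0.857 over 20 IPN libraries, Crhr1 at r = -0.595 and Crh at r = 0.0763. The points share library depth and, in the NLWD and TAL groups, few detected genes. The value for Crh rests in part on the NLWD libraries, with 0 TPM at a share of 10.3% and 2.35 TPM at 14.4%. Among Nic libraries Crh was highest, 8.01 and 6.91 TPM, where the share was lowest, 8.31 and 7.77%. In TA libraries Crh was 4.2 and 7.7 TPM at the lowest shares (12.3 and 12.5%).

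**Figure D2:**
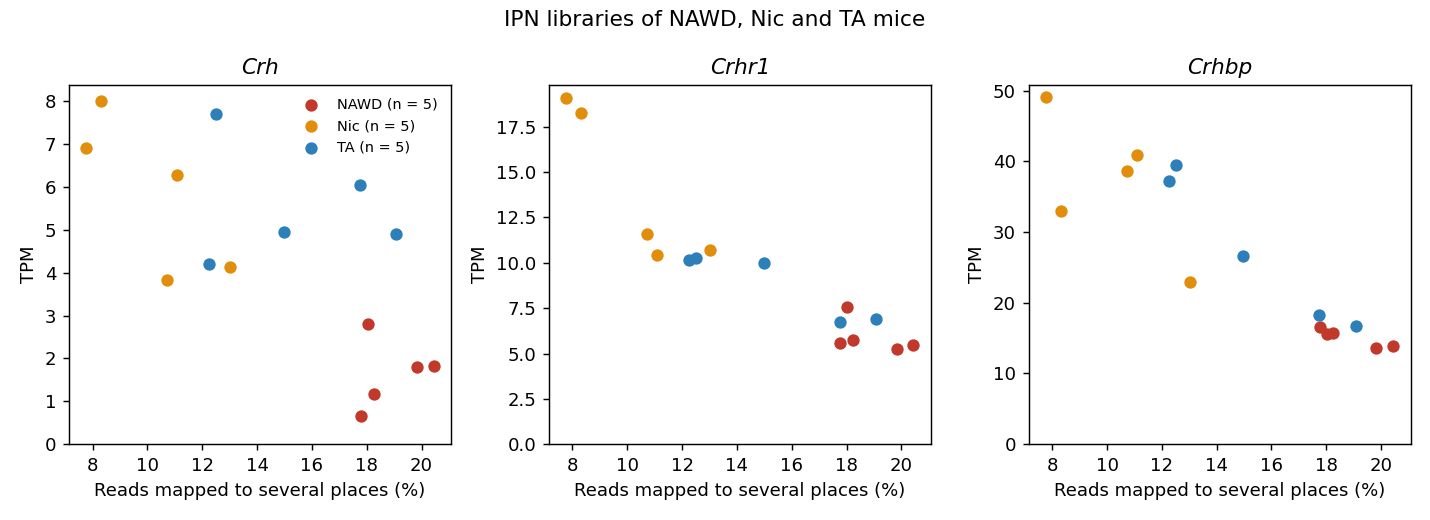
TPM of Crh, Crhr1 and Crhbp (vertical axes) against the percentage of reads mapped to several places (horizontal axes) in IPN libraries of NAWD, Nic and TA mice (points, n = 5 each). Crhr1 and Crhbp are low in libraries with a high share in TA as in NAWD mice. Crh is at most 2.81 TPM in NAWD libraries and at least 3.82 TPM in Nic and TA libraries.

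In the fit, Crhbp showed little difference between NAWD and TA (-0.04 ± 0.17, adjusted p = 0.939; -0.76 without factors, adjusted p = 0.0215), although every NAWD library was below every TA library. Crhr1 averaged 5.92 ± 0.94 TPM in NAWD, 14.01 ± 4.29 TPM in Nic and 8.82 ± 1.82 TPM in TA libraries (SD, n = 5 each). It gave 0.04 ± 0.14 for NAWD against TA, -0.07 ± 0.21 for NAWD against Nic and 0.11 ± 0.13 for Nic against TA (adjusted p = 0.921, 0.918 and 0.752). All Nic libraries lay above all TA libraries for Crhr1, as did 6.35% of all genes. Without factors, Crh (-1.38), Crhr1 (-1.08) and Crhbp (-1.198) were each called for NAWD against Nic (adjusted p = 5.6e-05, 1.2e-04 and 2.2e-04), together with 32.2% of all genes, and the median of all genes was then -0.64. The groups did not overlap, with NAWD lower, for Crh and Crhbp against TA (22.1% of all genes) and for Crh, Crhr1, Crhr2 and Crhbp against Nic (51.7% of all genes).

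Marker lists of other cells moved with the groups in the IPN as well. The 6 oligodendrocyte genes summed to 1293 to 2851 TPM in NAWD, 6084 to 18256 TPM in Nic and 4813 to 9399 TPM in TA libraries, and 0 of the 6 were called for NAWD against TA (3 at an unadjusted p under 0.05 in limma). Genes of endothelial and mural cells summed to 67.7 to 238 TPM in NAWD, 314 to 559 TPM in Nic and 273 to 607 TPM in TA libraries. Crh correlated with the oligodendrocyte sum at r = 0.62 over 20 IPN libraries with group means removed, and with the habenular neuron sum at r = 0.607. With the endothelial and mural list r was 0.384, and with the interpeduncular neuron list -0.059. The midline thalamus list named below summed to 469 to 684 TPM in NAWD, 1094 to 2318 TPM in Nic and 782 to 2214 TPM in TA libraries. The part of these cells in the Crh difference was not tested.

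Ucn varied more within the IPN groups than between them. It had 0.18, 0, 0.26, 0.99 and 0.06 TPM in NAWD, 1.17, 2.16, 3.03, 0.12 and 0.11 TPM in Nic and 1.65, 1.8, 1.3, 0.21 and 0 TPM in TA libraries, and the groups overlapped (NAWD against TA -0.28 ± 0.44, adjusted p = 0.820). Cartpt and Nucb2, which mark peptide neurons of the Edinger-Westphal nucleus, summed to 7.99 to 60.7 TPM in NAWD, 13.4 to 70.7 TPM in Nic and 18.8 to 66.2 TPM in TA libraries. This list was not specific to the IPN, since it reached 78.6 to 197 TPM in NAc and 11.5 to 42.2 TPM in MHb punches. Crhr2 averaged 0.57 ± 0.06 TPM in NAWD, 1.56 ± 0.77 TPM in Nic and 0.72 ± 0.17 TPM in TA libraries, with 0.23 ± 0.13 for NAWD against TA (adjusted p = 0.445).

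After long withdrawal the IPN values varied widely within both groups. Crh was 0 and 2.35 TPM in the NLWD libraries and 0 in all 3 TAL libraries. Ucn had 10.11 and 0 TPM in NLWD, against 7.5, 5.61 and 0 TPM in TAL libraries, the highest values of this gene in the series beside a 0 in each group. Crhr1 had 4.77 and 0.38 TPM in NLWD, against 10.75, 2.02 and 0.6 TPM in TAL libraries. For Crhbp the values were 19.61 and 6.78 TPM in NLWD and 32.36, 11.39 and 13.42 TPM in TAL libraries. The 3 members tested had 95% intervals of at least 3 log2 units (Ucn -2.59 to 1.73, Crhr1 -2.53 to 1.34, Crhbp -2.10 to 0.999), and 0.0861% of all genes were called.

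**Figure D3:**
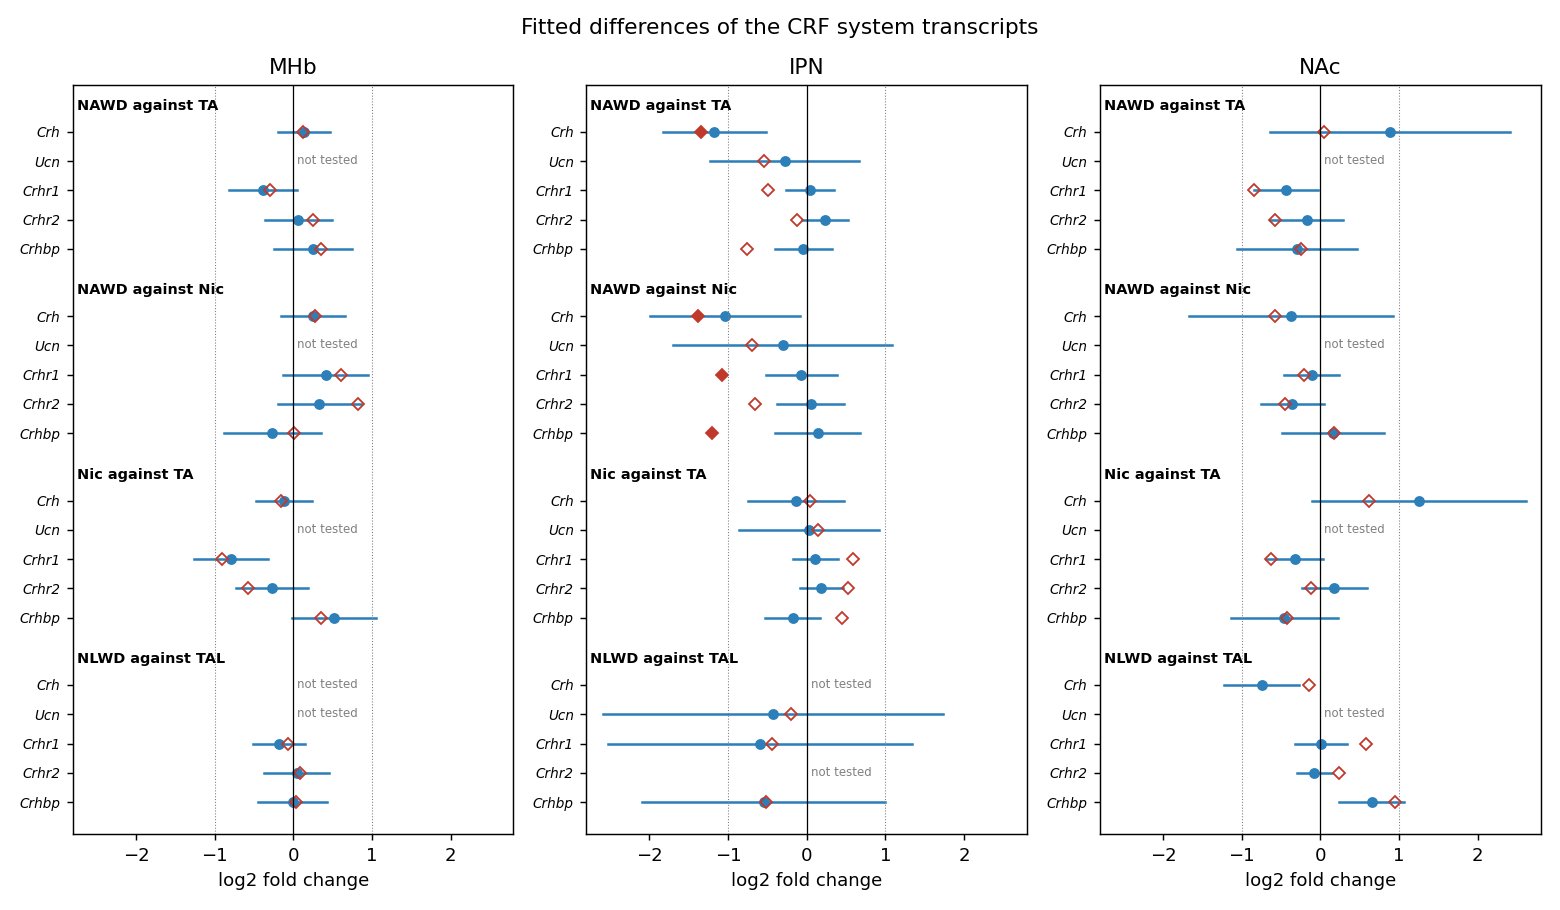
Log2 fold change of each member (horizontal axes) in the 4 comparisons of MHb, IPN and NAc. Circles and lines are the fit with factors of unwanted variation and its 95% interval, diamonds the fit without factors (filled where called), and dotted lines a 2-fold difference; filled diamonds appear only in IPN, for Crh in NAWD against TA and for Crh, Crhr1 and Crhbp in NAWD against Nic.

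In the MHb, the receptor Crhr1 was low in nicotine-treated mice. It had 0.98, 0.98, 0.47 and 1.03 TPM in Nic libraries, against 2.52, 3.68, 1.7 and 2.24 TPM in TA libraries, with no overlap. The log2 fold change was -0.79 ± 0.21 (95% interval -1.26 to -0.32, unadjusted p = 0.00332), with an adjusted p of 0.227 in limma over 17013 genes. It did not pass the threshold, and no gene was called in this comparison (0.0%; 2109 genes had an unadjusted p under 0.05). Of all genes, 6.95% lay wholly lower in Nic. The share of multiply mapped reads was 20.2 to 26.0% in Nic and 13.8 to 20.8% in TA libraries, and Crhr1 correlated with it at r = -0.65 over 22 MHb libraries with group means removed. The 6 habenular neuron genes summed to 303 to 609 TPM in Nic and 596 to 1133 TPM in TA libraries. Crhr1 correlated with that sum at r = 0.588, and with those of the endothelial and astrocyte lists at r = 0.692 and 0.676. Their part in the Crhr1 difference was not tested.

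After 48 hours of withdrawal, MHb Crhr1 was 1.09, 2.29, 2.14 and 1.9 TPM in NAWD libraries, above all Nic libraries and overlapping TA. The fitted differences were 0.41 ± 0.24 for NAWD against Nic and -0.38 ± 0.20 for NAWD against TA (adjusted p = 0.485 and 0.338). Crhr2 in the MHb was 2.48, 2.04, 2.69 and 3.4 TPM in NAWD, against 0.51, 1.89, 1.27 and 0.74 TPM in Nic and 3.66, 2.0, 1.39 and 1.56 TPM in TA libraries. NAWD libraries again lay above all Nic libraries, as they did for 25.9% of all genes, with 0.33 ± 0.24 for NAWD against Nic (adjusted p = 0.581). The multiply mapped share was 15.1 to 17.6% in NAWD libraries, and Crhr2 correlated with it at r = -0.679 over 22 MHb libraries with group means removed. Marker lists separated the same groups: habenular neuron genes summed to 1279 to 1566 TPM in NAWD and 303 to 609 TPM in Nic libraries, oligodendrocyte genes to 1581 to 2575 TPM in NAWD and 624 to 862 TPM in Nic, and endothelial and mural genes to 56.3 to 70.1 TPM in NAWD and 18.2 to 21.3 TPM in Nic libraries. Crhr2 correlated with the habenular list at r = 0.62 and with the striatal list at r = 0.704. Their part in the receptor differences was not tested. Called genes made up 0.776% of all genes for NAWD against TA and 0.564% for NAWD against Nic. Crh reached 0.83 TPM in 1 NAWD library and was 0.46 TPM or less in the other acute MHb libraries. In NLWD and TAL mice the MHb groups overlapped for all 5 members, and the 3 that were tested lay between -0.18 and 0.04 on the log2 scale (0.0059% of all genes called).

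In the NAc, Crh rested on single libraries during acute withdrawal. It had 1.24, 58.72, 14.81 and 2.66 TPM in NAWD, 10.97, 9.4, 15.05, 18.4 and 12.43 TPM in Nic and 9.37, 13.34, 6.35, 7.76 and 5.28 TPM in TA libraries. The highest and the lowest value of the region were both from NAWD libraries. The fit gave 0.89 ± 0.72 for NAWD against TA (adjusted p = 0.520) and -1.25 without NAWD replicate 2, the library with 58.72 TPM (adjusted p = 0.332). In that library Prkcd, Gbx2 and Calb2, a list for midline thalamus, summed to 281 TPM, against 26.6 to 73.3 TPM in the other NAWD libraries. Its oligodendrocyte genes summed to 8424 TPM, against 1467 to 1783 TPM, and its multiply mapped share was 10.2%, against at least 20.6% in the others. Over all 24 NAc libraries with group means removed, Crh correlated with the midline thalamus sum at r = 0.879 and with Calb2 alone at r = 0.885. Calb2 averaged 69.8 TPM over these libraries, so the sum was largely Calb2 and is not read as a measure of thalamic tissue. The part of these lists and of the multiply mapped share in the Crh values was not tested.

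**Figure D4:**
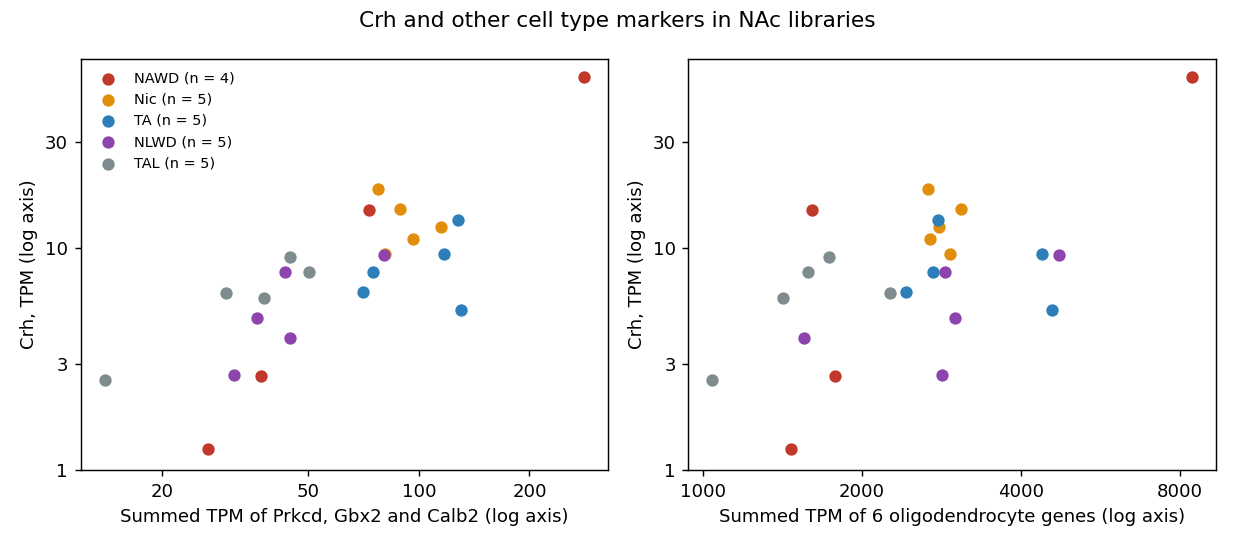
Crh TPM (vertical axes, logarithmic) in NAc libraries (points) against the summed TPM of Prkcd, Gbx2 and Calb2 (left) and of 6 oligodendrocyte genes (right), both on logarithmic axes. The NAWD library with 58.72 TPM of Crh has the highest sum in both panels, 281 and 8424 TPM.

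For Nic against TA, NAc Crh averaged 13.25 ± 3.55 TPM in Nic and 8.42 ± 3.15 TPM in TA libraries (SD, n = 5 each), with a log2 fold change of 1.25 ± 0.64 (adjusted p = 0.200). That value was 0.40 when NAWD replicate 2, which shares the fit, was left out. The receptor Crhr1 had 1.69, 3.36, 1.09 and 1.33 TPM in NAWD and 2.09, 2.67, 2.54, 1.45 and 2.29 TPM in Nic libraries, against 4.86, 2.26, 3.79, 4.5 and 4.71 TPM in TA libraries. The groups overlapped through TA replicate 2, and the fit gave -0.43 ± 0.19 for NAWD against TA and -0.32 ± 0.17 for Nic against TA (adjusted p = 0.204 and 0.217). NAc Crhr1 also followed the multiply mapped share (r = -0.86 over 24 libraries with group means removed), which was 10.2 to 22.1% in NAWD, 13.8 to 18.9% in Nic and 9.03 to 14.1% in TA libraries. Of all genes, 0.815% were called for Nic against TA, 0.0% for NAWD against TA (3688 at an unadjusted p under 0.05) and 0.0175% for NAWD against Nic.

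After 4 weeks of withdrawal, Crhbp stood higher in the NAc. It had 6.17, 8.94, 9.37, 11.56 and 9.97 TPM in NLWD libraries, against 3.3, 4.38, 4.59, 5.42 and 3.51 TPM in TAL libraries. The groups did not overlap, as was so in the same direction for 4.3% of all genes. The log2 fold change was 0.65 ± 0.18 (95% interval 0.24 to 1.07, unadjusted p = 0.00552, adjusted p = 0.156 in limma over 17972 genes), which did not pass the threshold. No gene was called in this comparison (0.0%; 2626 at an unadjusted p under 0.05). The multiply mapped share was 11.97 to 21.1% in NLWD and 17.5 to 24.8% in TAL libraries. Over 24 NAc libraries with group means removed, Crhbp correlated with it at r = -0.156. Among the marker lists, its highest r was 0.546, with 8 genes of dopamine neurons. The part of the share and of these cells in the Crhbp difference was not tested. Crh gave -0.74 ± 0.21 in the same fit (adjusted p = 0.166), although its groups overlapped, with 3.95, 7.81, 9.33, 4.86 and 2.67 TPM in NLWD and 5.93, 6.26, 7.81, 9.11 and 2.56 TPM in TAL libraries. Without factors the Crh difference was -0.14.

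Whether a response differed between regions was tested as an interaction, in 9 contrasts without factors. Of 30 member tests 1 was called: the response of Crhr1 to nicotine was higher in IPN than in NAc by 1.22 ± 0.31 on the log2 scale (95% interval 0.59 to 1.84, adjusted p = 0.00237). In this contrast 25.2% of all genes were called and their median was 0.53, so that Crhr1 stood 0.69 above the median gene. After quantile normalization the difference in Crhr1 was 0.47 (adjusted p = 0.0947), and with the multiply mapped share as a covariate it was 0.37 (adjusted p = 0.628). For IPN minus MHb, the nicotine response gave 1.49 ± 0.33 for Crhr1 (adjusted p = 0.0163) and 1.11 ± 0.34 for Crhr2 (adjusted p = 0.0255), neither past the threshold, in a contrast where 0.0% of genes were called (7006 at an unadjusted p under 0.05) and the median gene stood at 0.59. The Crhr1 value was called when IPN Nic replicate 3 (1.57, adjusted p = 0.00696) or MHb TA replicate 3 (1.61, adjusted p = 0.00905) was left out. For withdrawal, the Crh response in IPN minus that in NAc was -1.39 ± 0.71 (adjusted p = 0.577; 0.0% of genes called, 1478 at an unadjusted p under 0.05) and -0.50 without NAc NAWD replicate 2 (adjusted p = 0.681), and IPN minus MHb was -1.47 ± 0.73 (adjusted p = 0.150; 2.8% of genes called). The Crhr2 response to withdrawal in MHb minus that in NAc was 0.82 ± 0.26 (adjusted p = 0.0286; 1.69% of genes called, median 0.56), and 1.03 without MHb TA replicate 1, where it was called (adjusted p = 0.00371). In the other contrasts no member was called, with 0.0185% of genes called for the nicotine response in MHb minus NAc and, for long withdrawal, 0.702% in IPN minus MHb, 1.56% in IPN minus NAc and 0.0% in MHb minus NAc (1353 at an unadjusted p under 0.05 in limma).

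Genes around the members were followed through lists chosen by function. Of the other family ligands, Ucn2 never exceeded 0.67 TPM and Ucn3 was found mainly in NAc, at 0.06 to 1.6 TPM with a median of 0.495. Among 21 genes of cAMP signalling below the receptors, 1 was called in the 12 comparisons within regions: Prkar1b, a regulatory subunit of protein kinase A, averaged 332 ± 98.2 TPM in NAWD and 92.8 ± 25.2 TPM in Nic libraries of MHb (SD, n = 4 each; log2 fold change 1.201 ± 0.19, adjusted p = 0.00913). In that comparison 0.564% of all genes were called, and none with the multiply mapped share as a covariate (1386 at an unadjusted p under 0.05). None of 9 peptide-processing genes and none of 7 glucocorticoid receptor and target genes was called within a region. In NAc of Nic against TA mice, the peptide-processing genes with the smallest p were Scg2, a granin (0.92 ± 0.15), and Cpe, carboxypeptidase E (0.73 ± 0.14), both with an adjusted p under 0.01 (0.00872 and 0.00934) and short of the fold limit.

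In TA mice the same lists showed where the partners of the CRF receptors lay. Of the 21 cAMP genes, 1 was higher and 6 were lower in MHb than in IPN (median -0.53, all genes -0.09), where 12.5% of all genes were called. Prkar2a was the higher one, and among the lower were Adcy5, an adenylyl cyclase abundant in striatum (-1.28), and Arrb1, a beta-arrestin (-1.52). For MHb against NAc, 2 were higher and 9 lower (median -0.72, all genes -0.35; 26.4% of all genes called), led by Adcy5 at -4.79, with 11.5 ± 3.80 TPM in MHb (n = 4) and 356 ± 127 TPM in NAc (n = 5). For IPN against NAc, 2 were higher and 5 lower (median -0.39, all genes -0.22; 19.1% of all genes called), and Gnas, which encodes the stimulatory G protein that CRF receptors use, was higher in IPN by 1.10 ± 0.18 (adjusted p = 1.0e-04). Among the 7 glucocorticoid genes, 4 were lower in MHb than in NAc (median -1.47, all genes -0.35), and the receptors Nr3c1 (-1.92) and Nr3c2 (-1.50) were among them. The same 2 receptors were lower in IPN than in NAc (-1.26 and -1.10), with 1 gene of the list higher and 4 lower there (median -1.10). Of the 9 peptide-processing genes, Chga and Scg2 were the 2 called for MHb against IPN, both lower (-2.12 and -1.47; list median -0.49), and Pcsk2 was the only one called for IPN against NAc, lower in IPN (-1.51; list median 0.24).

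Likeness to the members was described by correlation, without a test. Within the IPN, with group means removed over 20 libraries, Crhr1 and Crhbp correlated with each other at r = 0.785, and Crh with them at -0.227 and -0.261. These values rest in part on the NLWD and TAL libraries, which had few detected genes and Crhr1 from 0.38 to 10.75 TPM. In the NLWD libraries Crh was 0 and 2.35 TPM where Crhr1 was 4.77 and 0.38 TPM. The genes most like Crhr1 were Zic2, B4galnt4 and Akap8 (r = 0.964, 0.961 and 0.959), Rsrp1 and Vezf1 were among those most like Crhbp (0.950 and 0.940), and those most like Crh were Mtmr4, Zfp207 and Pcna (0.813, 0.812 and 0.792). In NAc over 24 libraries, Crh was most like Marcksl1, Agt and Calb2 (0.901, 0.892 and 0.885), and Crhbp was most like Efhd2, Rtn4r and Sst (0.858, 0.836 and 0.807), Sst being somatostatin. Over all 66 libraries, Crhbp ranked with Slc10a4, Sst and Chrna2, a nicotinic receptor subunit (Spearman rho = 0.896, 0.893 and 0.885). The points of these correlations share tissue, depth and the multiply mapped share.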

How the data were processed

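The authors aligned paired reads of stranded mRNA libraries to mm10 with STAR 2.5.3a and deposited gene TPM from RSEM 1.3.0, with counts of mapped reads per library in a deposited mapping table. TPM sum to 1000000 in each library and keep no read counts, so counting intervals cannot be given, and a gene without an estimate is listed at 0. Libraries of the same group are separate pools of 4 mice. The miRNA libraries and the authors' tables of fold changes and FDR values were not used here.

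Values were tested as log2(TPM + 1) with limma 3.58.1 (trend) in R 4.3.3, so that changes of low genes are understated. A gene entered a fit when a share of 0.5 or more of every group's libraries had it above 0. Factors of unwanted variation, estimated from replicate deviations, entered the comparisons within regions, 2 each for the acute IPN and MHb fits, 1 for acute NAc, 1 each for the long IPN and MHb fits and 2 for long NAc. Their exact form is not given in the sources used here and was assumed. Calls needed a Benjamini-Hochberg adjusted p under 0.01 and a fold over 2. Region contrasts and differences of responses had no factors. Intervals are 95% intervals. The members and lists were chosen with earlier results of these data known. Every member is named. Of each list, called genes or, with none called, those with the smallest p could be named, and genes of greatest likeness are taken from the 3 with the highest correlation for each member, of which the text names only some. One gene among those for Crhbp is not reported here. Promoter sequences are from RefSeq. Alternatives were a pseudocount of 0.1, no filter, a mean of at least 1 TPM, quantile normalization, no factors, only the groups compared, libraries numbered 1 to 4, a replicate block, TAL mice for region contrasts, and each library left out. The multiply mapped share as a covariate was added after seeing the data. The fits were tested on simulated data. Figures were drawn with matplotlib 3.10.9.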

Additional observations from a re-analysis of the deposited data

Results flagged for a closer look

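In groups of 4 or 5 libraries, 9 of 61 sets of member values held a library far from the others by Dixon's test. Chance gives about 1 in 20 for values on a continuous scale, but not where the other libraries are at 0, as in 4 of the Ucn sets, so the count is not read against that rate. For Ucn it was the highest library in each case: 0.99 TPM in IPN of NAWD mice, 0.15 TPM in MHb of Nic mice, 0.47 TPM in MHb of NLWD mice, and in NAc 0.34 TPM in NLWD, 0.63 TPM in TA and 0.4 TPM in TAL mice. The other libraries were listed at 0 in the MHb sets and in NAc of TA and TAL mice, while NAc of NLWD mice had 1 other library above 0, at 0.04 TPM. For Crhr1 the highest library stood apart in IPN of NAWD mice (7.58 TPM) and in MHb of NLWD mice (2.75 TPM), and the lowest in MHb of Nic mice (0.47 TPM).

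The response of Crhr1 to nicotine differed between IPN and NAc by 1.22 on the log2 scale in the test of the difference itself. Its values after quantile normalization (0.47) and with the multiply mapped share as a covariate (0.37) were not called.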

How the results depend on the processing

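Across 2221 values from the alternatives for 91 member values, 3 lost a call, 17 gained one and 3 reversed. The other 2198 stayed on their side of the threshold, and 95 of these changed sign, all of them for values neither called nor at an unadjusted p under 0.05. Without factors, 1 member was called for NAWD against TA in IPN and 3 for NAWD against Nic, against 0 in each with factors, and over all genes the calls were 555 against 18 and 5807 against 1. In TAL mice 1 member was called for MHb against IPN and 1 for MHb against NAc, where TA mice gave 3 and 2. For IPN against NAc, 2 members were called with a pseudocount of 0.1, with quantile normalization and with the multiply mapped share as a covariate, against 1. Crhr2 for MHb against IPN was called as well with a pseudocount of 0.1 (1.39) and with that covariate (1.07). With that covariate, 0 members were called for the nicotine response in IPN minus NAc, against 1. The reversed values were Crhbp for NAWD against Nic in IPN without factors (-1.198) and, with the covariate, the nicotine responses of Crhr2 in IPN minus MHb (-0.053) and of Crhbp in IPN minus NAc (-0.075). The cause was not tested.

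Leaving out single libraries gave 2 to 3 called members for MHb against IPN, 1 to 2 for MHb against NAc, 1 to 2 for IPN against NAc, 0 to 1 for the nicotine response in IPN minus MHb, 1 for that in IPN minus NAc, 0 to 1 for the withdrawal response in MHb minus NAc, and 0 in all others. Crh was filtered out of the region contrasts without MHb TA replicate 1 or 3, and Crhr1 was called for IPN against NAc without IPN TA replicate 3 or 4, or NAc TA replicate 1, 4 or 5.

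Whether replicate numbers pair the samples was not settled. In no comparison were all same-numbered libraries correlated above 0.1 (for NAWD against TA in IPN, -0.06 to 0.28). Single pairs for Nic against TA reached 0.56 in IPN and 0.48 in NAc, so a shared batch of some libraries cannot be told from these values. A replicate block changed no count of called members; under it Crh in IPN was -0.72 for NAWD against TA (adjusted p = 0.355) and -0.20 for NAWD against Nic (adjusted p = 0.911). No paired analysis was possible for NLWD against TAL in IPN because these groups share no replicate number.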
